A study of Mus musculus with 3 samples.

Results

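Mitochondrial solute carriers are the proteins of the Slc25 family, which exchange metabolites, nucleotides, cofactors and metal ions across the inner mitochondrial membrane. They were taken as all probe sets that the platform annotation gives to a single gene with a symbol of the form Slc25a followed by a number. This gave 93 probe sets of 44 genes, out of 45101 probe sets on the array. Of these, 73 probe sets of 36 genes passed a filter on dim probe sets, which kept 11092 genes in all. The other 8 genes were too dim to compare.

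Most Slc25 proteins share one fold, made of repeated pairs of membrane helices around a central substrate site, and are imported from the cytosol by the TOM and TIM22 machinery. In skeletal muscle they are best known for exporting ATP in exchange for ADP, importing phosphate, running the malate-aspartate shuttle and bringing acylcarnitines in for oxidation. Other members carry coenzyme A, nucleotides, glutathione, NAD, folate, iron and amino acids, and several have no settled substrate.

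The RNA came from gastrocnemius, a mostly fast-twitch calf muscle, of C57BL/CD1 mice whose genotype label reads Akt_Cre transgenic. The design text of the series describes a fusion of the growth kinase Akt with an oestrogen-binding domain, made in skeletal muscle. Per that text, tamoxifen stabilises the fusion, which leads to muscle growth. The sample titles name no fusion. They call all mice, the oil-treated ones included, Akt_Cre mice, and say that tamoxifen upregulated Akt expression in muscle only. Whether a Cre was involved is not given. The groups were tamoxifen for 48 h, tamoxifen for 24 h and oil for 24 h, with 1 Affymetrix Mouse 430 2.0 array each and RNA of 3 to 4 mice pooled per array. The promoter of the transgene, the number of founder lines and the age of the mice are not given in the sources used here. There was no 48 h oil array and no tamoxifen-treated array without the fusion, so time, tamoxifen and Akt cannot be told apart at 48 h, nor tamoxifen and Akt at 24 h. With 1 array per group no value has a replicate error and no test was possible, and differences are described by size alone. In whole muscle, fewer cells of a type and less RNA per cell cannot be told apart.

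Values are intensities scaled to a common median, and ratios are log2 unless written as fold. Over the kept probe sets, in log2, the tamoxifen 48 h array correlated at r = 0.954 and the tamoxifen 24 h array at 0.955 with oil, and both tamoxifen arrays at 0.967 with each other. All 8 fast-fibre markers passed the filter, with summed intensities of 72898, 70327 and 73049 on the tamoxifen 48 h, tamoxifen 24 h and oil arrays. The 7 slow-fibre markers summed to 6337, 8319 and 7642 in the same order, and the adipocyte markers analysed (4 of 6) to 560, 848 and 684. Brown adipocyte markers summed to 66.4, 63.7 and 35.8, and erythroid markers analysed (3 of 6) to 48.04, 48.1 and 54.6, with Hba-a1 below the floor on each array. Sums for 5 macrophage markers were 1436, 1722 and 1697, for 5 endothelial markers 663, 841 and 910, for 5 fibroblast markers 12286, 11992 and 13326, and for the Schwann cell markers analysed (2 of 4) 2017, 2180 and 2225. Bright genes weigh most in such sums, and single markers can run against them. At 48 h 2 of 5 fibroblast markers lay above oil, Col1a1 by 2.26-fold, and 3 below. Among macrophage markers 1 lay above oil (Cd68, 1.49-fold) and 4 below, Cd163 by 2.10-fold. No hepatocyte marker passed the filter. The part of slow-fibre or non-muscle cells in the carrier values below was not tested.

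As a family the carriers stayed close to their oil levels. At 48 h of tamoxifen 2 of 36 genes were at least 2-fold different, both lower than oil: the pyrimidine nucleotide carrier Slc25a33 and the uncoupling-protein-like Slc25a27. That is 5.56% of the carriers, near the 6.44% of all 11092 genes past 2-fold in either direction. Of all genes 3.72% were higher and 2.71% lower. At 24 h only Slc25a27 passed, again lower, 2.78% of the carriers beside 4.83% of all genes (2.35% higher and 2.48% lower). Between the tamoxifen arrays, Slc25a23, an ATP-Mg/phosphate carrier, was 2.00-fold higher at 48 h than at 24 h, 2.78% of the carriers beside 3.22% of all genes (1.8% higher and 1.42% lower). Its ratio sits at the 2-fold limit. The counts are too small and too near these background shares to set the family apart.

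The median log2 ratio of the carriers was 0.11 at 48 h and 0.02 at 24 h against oil, beside 0.01 and 0.04 over all genes. Ratios ran between -1.24 (Slc25a33) and 0.90 (Slc25a39) at 48 h and between -1.51 (Slc25a27) and 0.52 (Slc25a36) at 24 h. At 48 h 24 carriers lay above 0 and 12 below (66.7% above, beside 50.6% of all genes), and at 24 h 20 lay above and 16 below (55.6%, beside 54.0%). On the log2 scale, 18 of 36 carriers at 48 h (beside 42.0% of all genes) and 23 at 24 h (63.9%, beside 45.3%) lay within 0.25 of oil. Both comparisons use the same oil array.

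**Figure D1:**
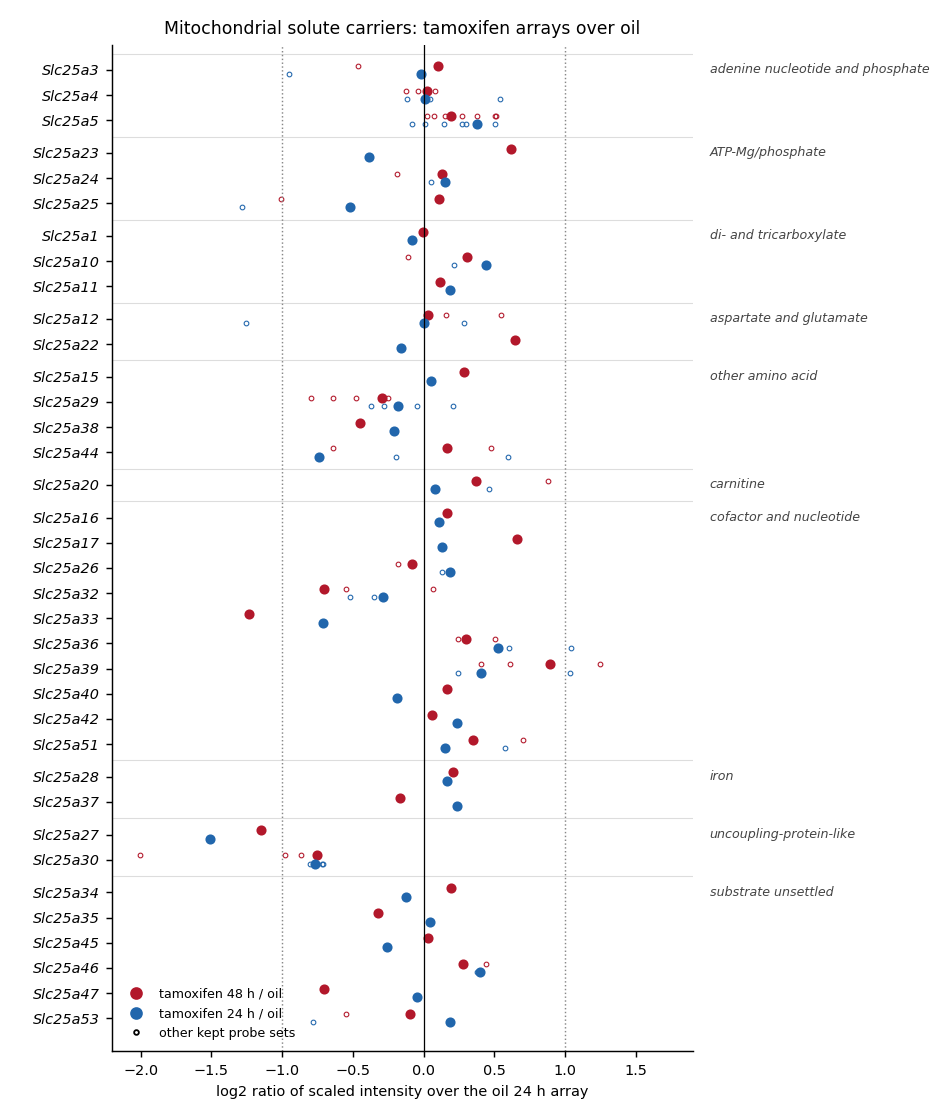
Log2 ratio of scaled intensity over the oil 24 h array (x axis) for the 36 carriers that passed the filter, grouped by substrate, with tamoxifen 48 h in red above tamoxifen 24 h in blue. Filled points are the probe set that stands for each gene, open points its other kept probe sets, and dotted lines mark 2-fold; only Slc25a33 and Slc25a27 have a filled point past the lower line, and none has one past the upper line.

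With single arrays, the check available within these data is whether different probe sets of a gene read the same way. Of 18 carriers with 2 or more kept probe sets, 11 had all of them on one side of oil at 48 h and 12 at 24 h. Those shares are 61.1% and 66.7%, beside 56.2% and 49.4% of 5001 genes of all kinds. Slc25a20, Slc25a36, Slc25a39, Slc25a46 and Slc25a51 had every kept probe set above oil at both times, and Slc25a30 had every kept probe set below. Slc25a33 and Slc25a27 each rested on 1 kept probe set. Over kept probe sets, 5 of 73 carrier probe sets (6.85%) passed 2-fold at 48 h and 5 (6.85%) at 24 h, beside 7.01% and 6.64% of 19362 probe sets with 1 gene. Between the tamoxifen arrays 3 carrier probe sets (4.11%) did, beside 4.79%.

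Against oil, the carriers of cofactors and nucleotides held both the lowest and the highest ratio at 48 h. Mitochondria import pyrimidine nucleotides to copy and transcribe their own DNA, through Slc25a33 and Slc25a36. Slc25a33 read 83.4 at 48 h and 119.9 at 24 h of tamoxifen, against 197 on the oil array. Both tamoxifen arrays lay below oil, by 2.36-fold at 48 h and 1.64-fold at 24 h. In cultured cells this carrier is known to be induced by insulin-like growth factor 1 through mTOR, the pathway on which Akt lies. The log2 ratio of Slc25a33 at 48 h lay between -1.30 and -1.16 under the 10 processing alternatives. The gene has 1 probe set, well above the floor, so only the scaling of the arrays could move this ratio. The narrow range is therefore no further support.

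Slc25a36, the other pyrimidine nucleotide carrier, lay on the opposite side of oil. It read 223 at 48 h and 261 at 24 h of tamoxifen, against 182 with oil, 1.23-fold and 1.44-fold higher. Its other kept probe sets read 80.0 and 116, against 56.4 with oil, and 48.8 and 62.6, against 41.3 with oil. All 3 probe sets were thus highest on the 24 h array and lowest on the oil array, and 1 of them passed 2-fold at 24 h (1.04 on the log2 scale).

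Slc25a39, which brings glutathione into mitochondria, had the highest ratio of the family at 48 h. It read 1359.5 at 48 h and 969 at 24 h, against 731 with oil, 1.86-fold and 1.33-fold higher. The other kept probe sets read 461, 131.0 and 172 at 48 h and 412, 114 and 149 at 24 h, against 348, 86.0 and 72.7 with oil. All 4 were ordered in the same way, highest at 48 h and lowest with oil, and 1 of them passed 2-fold at both times (1.24 and 1.04 on the log2 scale). That one is the only kept probe set of Slc25a39 whose name does not end in x_at, the manufacturer's mark for probes that other sequences can also bind. Slc25a40, its close relative, read 42.7 and 33.4, against 38.1 with oil, so its tamoxifen arrays lay on either side of oil.

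The NAD carrier Slc25a51 read 399 at 48 h and 347 at 24 h, against 313 with oil, and its other kept probe set read 270.1 and 247, against 166 with oil. Both probe sets ran in the same order, 1.27-fold higher at 48 h on the first and 0.70 on the log2 scale on the second. Slc25a17, a peroxisomal carrier of coenzyme A and related cofactors, read 66.4 and 45.9, against 42.0 with oil. It was 1.58-fold higher at 48 h on its single kept probe set.

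The remaining cofactor carriers differed by less, except for the folate carrier. Slc25a32, which carries folate and flavin cofactors, read 24.2 at 48 h and 32.4 at 24 h, against 39.4 with oil, and its 3 kept probe sets lay between -0.70 and 0.07 at 48 h. Mthfd2, a mitochondrial folate enzyme, read 83.6 and 87.7, against 34.6 with oil, 2.41-fold and 2.53-fold higher. The coenzyme A carriers Slc25a16 (236 and 227, against 211 with oil) and Slc25a42 (84.7 and 95.5, against 81.2 with oil) and the S-adenosylmethionine carrier Slc25a26 (96.6 and 116, against 102 with oil) lay within 1.18-fold of oil at both times.

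Carriers related to the uncoupling proteins lay below oil on both tamoxifen arrays. Slc25a30, first described in kidney, read 124 at 48 h and 122.5 at 24 h, against 209.0 with oil, 1.69-fold and 1.71-fold lower. Its other kept probe sets read 70.3, 49.7 and 7.96 at 48 h and 85.0, 52.2 and 19.4 at 24 h, against 139, 90.9 and 32.0 with oil. All 4 were below oil on both tamoxifen arrays, and their 24 h log2 ratios were close together, from -0.80 to -0.71. At 48 h they ranged from -2.01 to -0.76, and the lowest belongs to the dimmest probe set.

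Slc25a27, known mainly from brain, read 25.9 at 48 h and 20.2 at 24 h, against 57.5 with oil, 2.22-fold and 2.84-fold lower. Its other probe sets, 3 of 4, did not pass the filter. The call therefore rests on 1 dim probe set, which a stricter filter removes. Another relative, Slc25a14, did not pass the filter.

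**Figure D2:**
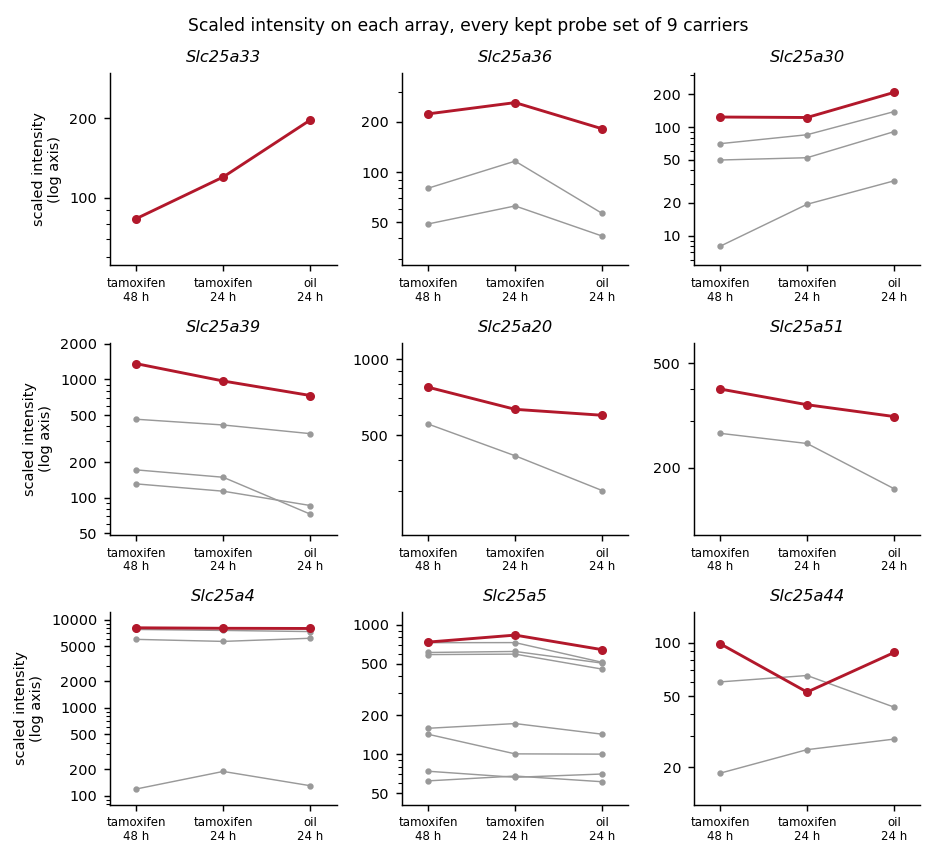
Scaled intensity (y axis, log scale, different range in each panel) on the tamoxifen 48 h, tamoxifen 24 h and oil 24 h arrays for every kept probe set of 9 carriers; red marks the probe set that stands for the gene and lines join the values of one probe set. Slc25a33 and all probe sets of Slc25a30 are highest with oil, those of Slc25a36, Slc25a39, Slc25a20 and Slc25a51 are lowest with oil, Slc25a4 is flat on its bright probe sets, and the 3 probe sets of Slc25a44 disagree.

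The promoters of 6 carriers with a kept probe set past 2-fold in at least 1 comparison are shown so that carriers on either side of oil can be compared. Slc25a25 and Slc25a27 also had such a probe set and are not printed. Each line gives the 250 bases before an annotated start of the gene in RefSeq on GRCm38.p6, written on the gene's own strand. Capitals mark matches, on either strand, to any of 7 motifs searched.
Slc25a33 (chr4:149774268-149774517, minus strand): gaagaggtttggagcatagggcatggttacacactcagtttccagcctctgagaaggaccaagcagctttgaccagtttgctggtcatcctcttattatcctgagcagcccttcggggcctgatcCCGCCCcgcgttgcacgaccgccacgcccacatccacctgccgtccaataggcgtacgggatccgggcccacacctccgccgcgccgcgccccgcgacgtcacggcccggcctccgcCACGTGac
Slc25a36 (chr9:97111042-97111291, minus strand): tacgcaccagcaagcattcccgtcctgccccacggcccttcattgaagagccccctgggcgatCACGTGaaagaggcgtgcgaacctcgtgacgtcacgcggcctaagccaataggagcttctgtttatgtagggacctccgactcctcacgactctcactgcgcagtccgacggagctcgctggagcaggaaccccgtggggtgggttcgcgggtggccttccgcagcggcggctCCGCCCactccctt
Slc25a30 (chr14:75787038-75787287, minus strand): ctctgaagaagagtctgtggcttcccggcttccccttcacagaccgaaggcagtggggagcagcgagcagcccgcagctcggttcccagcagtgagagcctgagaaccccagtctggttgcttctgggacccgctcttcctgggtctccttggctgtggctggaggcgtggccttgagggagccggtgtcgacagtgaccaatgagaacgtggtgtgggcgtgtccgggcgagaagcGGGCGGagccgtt
Slc25a39 (chr11:102407518-102407767, minus strand): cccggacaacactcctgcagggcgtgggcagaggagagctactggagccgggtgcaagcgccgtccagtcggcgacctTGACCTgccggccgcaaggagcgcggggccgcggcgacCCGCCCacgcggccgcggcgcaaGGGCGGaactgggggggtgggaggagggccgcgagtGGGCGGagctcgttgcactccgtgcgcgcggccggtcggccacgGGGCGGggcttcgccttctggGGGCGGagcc
Slc25a12 (chr2:71367756-71368005, minus strand): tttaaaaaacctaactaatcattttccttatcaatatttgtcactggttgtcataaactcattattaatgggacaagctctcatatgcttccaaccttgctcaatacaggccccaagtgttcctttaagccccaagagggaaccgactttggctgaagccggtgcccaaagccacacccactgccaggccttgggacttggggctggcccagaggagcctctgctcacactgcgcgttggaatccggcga
Slc25a23 (chr17:57059843-57060092, minus strand): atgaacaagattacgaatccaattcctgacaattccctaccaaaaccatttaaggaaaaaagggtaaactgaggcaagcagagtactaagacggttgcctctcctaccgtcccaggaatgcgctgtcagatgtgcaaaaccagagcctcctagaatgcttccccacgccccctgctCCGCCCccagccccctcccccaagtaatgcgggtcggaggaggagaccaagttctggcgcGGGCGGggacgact
The motifs were the FoxO site GTAAACA, the E-box CACGTG, the Sp1 site GGGCGG, the ATF4-type site TGATGNAA, the NRF-1 palindrome, the ERR site TCAAGGTCA and the nuclear receptor element AGGTCA, which the ERR site contains. FoxO factors are restrained by Akt, and the E-box is a site of Myc, Max and related factors.

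The Slc25a33 window held an E-box that began 8 bases before the start and an Sp1 site at 125 bases. The Slc25a36 window held an E-box at 187 bases and an Sp1 site at 14 bases. Any bearing of these letters on the intensities of the 2 pyrimidine carriers was not tested. Slc25a39 held 5 Sp1 sites and 1 nuclear receptor element, and Slc25a30 held 1 Sp1 site only. The Slc25a12 window held no match. Slc25a23 has 2 annotated starts close together, and the printed window held 2 Sp1 sites and the other 1. Slc25a25 has 3 annotated starts, of which 2 had an Sp1 site in their windows and the other had no match. RefSeq windows were matched for 34 of 44 carrier genes, 43 windows in all since some genes have several starts. The Sp1 site was in 74.4% of these windows, beside 32.7% of 32851 windows of all genes and 57.0% of 11633 windows of the genes that passed the filter. The E-box was in 8 of 43 (18.6%), beside 6.02% and 8.3%, and the nuclear receptor element in 9.3%, beside 14.0% and 10.8%. The carrier windows include carriers that did not pass the filter, among them Slc25a13, Slc25a14 and Slc25a31 with an E-box. They are therefore not a like set to the windows of genes that passed. Starts close together, such as those of Slc25a23, can count the same letters more than once. These shares were not tested. No carrier window held the FoxO, ATF4-type, NRF-1 or ERR letters, which stood in 3.17%, 3.45%, 0.782% and 0.387% of all windows. In windows of genes that passed the filter the shares were 2.24%, 1.99%, 1.64% and 0.266%. At shares this low, the absence of a match in 43 windows says little. A match describes the letters and is not a binding site.

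On their brightest probe sets, the main muscle carriers of ADP/ATP and phosphate hardly differed between arrays. Slc25a4, the ADP/ATP carrier of muscle, read 8088 at 48 h and 7985 at 24 h, against 7946 with oil, a log2 ratio of 0.03 and 0.01. A dimmer kept probe set of Slc25a4 read 119 and 189, against 129.9 with oil, 0.54 above oil at 24 h. Slc25a3, the phosphate carrier, read 6113 and 5618, against 5687 with oil. A second, much dimmer probe set of Slc25a3 read 23.1 and 16.5, against 31.9 with oil, 1.94-fold lower at 24 h.

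Slc25a5, the ADP/ATP carrier of growing and non-muscle cells, read 735 at 48 h and 833 at 24 h, against 642 with oil. All 8 of its kept probe sets lay above oil at 48 h, by 0.02 to 0.51 on the log2 scale, and at 24 h they ranged from -0.08 to 0.51. Most of these probe sets have names ending in x_at. Of 5 endothelial markers, 1 lay above oil at 48 h and 3 at 24 h, with sums of 663 and 841, against 910 with oil, and their part in this value was not tested.

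ATP-Mg/phosphate carriers adjust the pool of adenine nucleotides inside mitochondria and are controlled by calcium. Slc25a23 read 30.5 at 48 h and 15.2 at 24 h, against 19.9 with oil. It was above oil at 48 h and below it at 24 h, on 1 probe set, and the difference between the tamoxifen arrays fell under 2-fold in 5 of 9 alternatives. Slc25a25 read 160.3 and 104, against 148 with oil, and its second kept probe set read 16.4 and 13.5, against 32.9 with oil. Both were lowest at 24 h, by 0.52 and 1.29 on the log2 scale, but at 48 h the first lay 0.11 above oil and the second was 2.01-fold below it. Slc25a24 read 130.1 and 132, against 119 with oil, with its second kept probe set at -0.19 and 0.05.

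Carriers of di- and tricarboxylates feed and drain the citric acid cycle. Slc25a11, the oxoglutarate carrier of the malate-aspartate shuttle, read 1186 at 48 h and 1245 at 24 h, against 1093 with oil. Slc25a10, the dicarboxylate carrier, read 47.1 and 51.7, against 38.1 with oil, 1.24-fold and 1.36-fold higher, with a dimmer kept probe set at -0.11 and 0.22. Slc25a1, the citrate carrier that supplies lipid synthesis, read 59.1 and 56.0, against 59.4 with oil. Pcx, pyruvate carboxylase, was by contrast 3.58-fold and 2.71-fold higher (408 and 309, against 114 with oil), and citrate synthase (Cs) read 3106 and 3002, against 3035 with oil.

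The aspartate-glutamate carrier of muscle, Slc25a12, completes the malate-aspartate shuttle and read 2068 at 48 h and 2031 at 24 h, against 2029 with oil. A second kept probe set of Slc25a12 read 292 and 244, against 200.2 with oil, and another, dim one read 23.5 and 8.80, against 21.0 with oil. The glutamate carrier Slc25a22 read 113.6 and 65.1, against 72.6 with oil, so it was 1.56-fold higher at 48 h and 1.12-fold lower at 24 h. The shuttle enzymes Mdh1, Mdh2, Got1 and Got2 lay between -0.20 and 0.43 at 48 h, and Gpd1, of the competing glycerol phosphate shuttle, was 1.87-fold higher at 48 h and 1.57-fold higher at 24 h, though its kept probe sets ranged down to -1.69 and -0.42.

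Among carriers of other amino acids, Slc25a44, which imports branched-chain amino acids, gave no single answer. It read 99.1 at 48 h and 52.9 at 24 h, against 88.4 with oil, while its other kept probe sets read 60.3 and 65.6, against 43.5 with oil, and 18.5 and 25.1, against 28.8 with oil. At 24 h one of the 3 lay above oil and the others below. Slc25a29, a carrier of basic amino acids, had all 5 kept probe sets below oil at 48 h, from -0.80 to -0.26 in log2, and read 67.8 and 73.4, against 83.3 with oil.

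Slc25a38 imports glycine for the first step of haem synthesis. It read 57.9 at 48 h and 68.5 at 24 h, against 79.3 with oil, 1.37-fold and 1.16-fold lower. Alas1, the enzyme that uses this glycine, read 1266 and 1221, against 631 with oil. It was 2.01-fold and 1.94-fold higher, but its other kept probe set lay at 0.15 at 48 h, and it kept the 2-fold call in 5 of 10 alternatives. Slc25a15, the ornithine carrier, read 117 and 99.8, against 96.1 with oil.

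The carnitine-acylcarnitine carrier Slc25a20 brings long-chain fatty acids to the oxidation enzymes. It read 775 at 48 h and 633 at 24 h, against 599.7 with oil, and its second kept probe set read 554 and 414, against 301 with oil. Both probe sets were ordered in the same way, 0.37 and 0.88 above oil at 48 h and 0.08 and 0.46 at 24 h on the log2 scale. Its partner enzymes Cpt2 and Crat were 1.54-fold and 1.35-fold higher at 48 h, with their lowest kept probe sets at 0.05 and 0.02. Slow-fibre markers, whose fibres oxidise more fat, summed to 6337 and 8319, against 7642 with oil, and their part in this value was not tested.

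The iron importers, or mitoferrins, showed little difference. Slc25a28 read 209.9 at 48 h and 204 at 24 h, against 182 with oil. Slc25a37, the mitoferrin of red cell precursors, read 72.9 and 96.6, against 81.9 with oil, while the erythroid markers analysed summed to 48.04 and 48.1, against 54.6 with oil.

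Of the carriers without a settled substrate, Slc25a46 sits in the outer membrane and takes part in mitochondrial fusion and fission. It read 541 at 48 h and 586 at 24 h, against 445 with oil, and its second probe set read 510 and 489, against 377 with oil. Both lay above oil at both times, by 0.28 to 0.44 on the log2 scale. Slc25a47, known mainly from liver, read 18.6 and 29.3, against 30.3 with oil. It was 1.63-fold lower at 48 h on a dim probe set. The other 4 (Slc25a34, Slc25a35, Slc25a45 and Slc25a53) lay between -0.32 and 0.19 at 48 h and between -0.26 and 0.19 at 24 h. A second, dim kept probe set of Slc25a53 lay outside these ranges, at -0.55 at 48 h and -0.78 at 24 h.

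**Figure D3:**
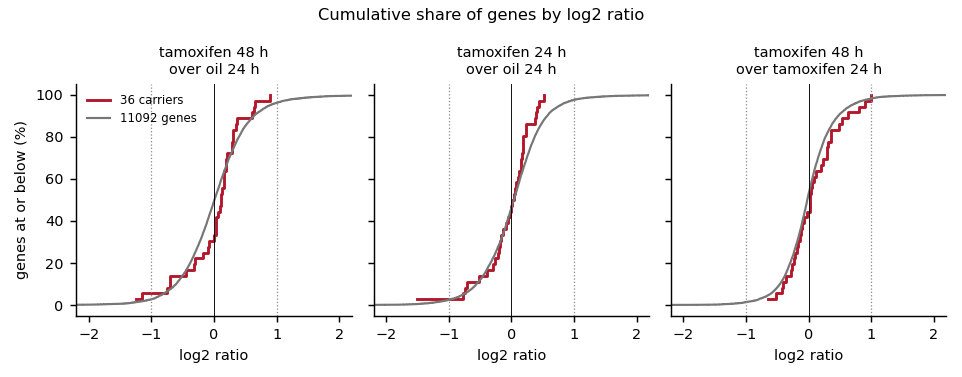
Cumulative share of genes (y axis, percent) by log2 ratio (x axis) for the 36 carriers in red and all 11092 genes in grey, for tamoxifen 48 h over oil, tamoxifen 24 h over oil and tamoxifen 48 h over 24 h. Dotted lines mark 2-fold; the carrier curves lie close to those of all genes, with medians of 0.11, 0.02 and 0.02 beside 0.01, 0.04 and -0.02.

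Slc25 family members that go by other symbols included one with a larger difference. Ucp3, the uncoupling protein of skeletal muscle, read 329 at 48 h and 100.5 at 24 h, against 105.8 with oil. It was 3.11-fold above oil and 3.27-fold above the 24 h array at 48 h, with both kept probe sets past 2-fold, and within 1.05-fold of oil at 24 h. Slc25a30 and Slc25a27, its relatives above, lay on the other side of oil at 48 h. Mtch2, an outer membrane member, read 1148 and 1139, against 1076 with oil, but its 4 kept probe sets lay between -1.85 and 0.99 at 48 h.

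Genes that work beside the carriers were compared as lists, with the 2-fold shares of all genes given above. Of 14 carrier import genes, none passed 2-fold, and 13 lay above 0 at each time, with medians of 0.34 at 48 h and 0.35 at 24 h beside 0.01 and 0.04 over all genes. Above 0 lay 50.6% and 54.0% of all genes. With a gene taken as the median of its kept probe sets, 9 of the 14 lay above 0 at 48 h and 1 was past 2-fold lower. Timm9, a chaperone of the intermembrane space, lay at 0.45 at 48 h while its other kept probe set lay at -3.32. Timm22, the channel that inserts carriers, read 259 and 254, against 159 with oil, with its other kept probe set at -0.09 and -0.14. Timm8a1, like Timm9 a chaperone, read 253 and 234, against 136 with oil. Tomm40, the outer membrane pore, read 284 and 260, against 171 with oil. The import medians stayed above 0 under all 10 alternatives, between 0.17 and 0.42 at 48 h and between 0.27 and 0.64 at 24 h, though the median of all genes at 24 h itself reached 0.19 without a filter.

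Of 14 other inner membrane transporters, only Sfxn4, a sideroflexin, passed 2-fold. It was 3.83-fold lower at 48 h and 2.31-fold lower at 24 h (11.2 and 18.6, against 43.0 with oil). Both ratios rest on 1 dim probe set, which a stricter filter removes. Its 48 h value lay below the median of that array, so it passed on its mean rank over the arrays. Where Sfxn4 was kept, it stayed past 2-fold in 9 of 9 alternatives at 48 h and in 8 of 9 at 24 h. Mcu, the pore of the calcium uniporter, read 182 and 198, against 106 with oil, 1.72-fold and 1.87-fold higher. Its other kept probe set lay at -0.18 at 48 h and 1.21 at 24 h. Mpc1, a subunit of the pyruvate carrier, read 3306 and 3386, against 3402 with oil.

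Of 9 outer membrane channels and partners of ADP/ATP exchange, Ppif passed 2-fold at 48 h. Ppif encodes cyclophilin D, which regulates the permeability transition, and read 292 and 236, against 123 with oil, 2.37-fold and 1.91-fold higher, with its other kept probe set at 0.70 and 0.0041. Vdac1, the main outer membrane channel, read 4223 and 4205, against 4315 with oil, and Ckmt2, the mitochondrial creatine kinase of muscle, 5432 and 5335, against 5469 with oil. Of 17 enzymes that share substrates with the carriers, 3 were at least 2-fold higher at 48 h (Pcx, Mthfd2 and Alas1) and 2 at 24 h (Pcx and Mthfd2), with none lower and list medians of 0.05 and 0.15.

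**Figure D4:**
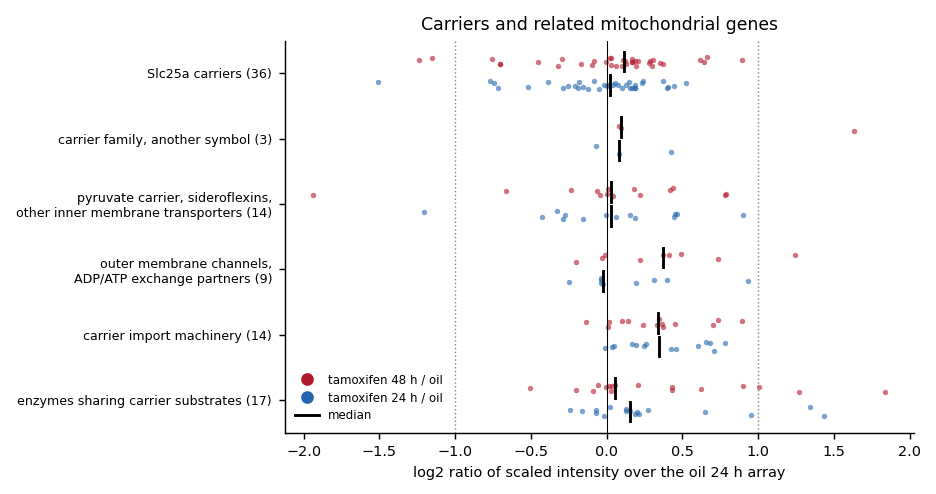
Log2 ratio over the oil 24 h array (x axis) for the Slc25a carriers and 5 related gene lists, with the number of genes in brackets, tamoxifen 48 h in red above tamoxifen 24 h in blue. Black bars are list medians and dotted lines mark 2-fold; the import machinery has medians of 0.34 and 0.35, and Ucp3 is the single red point at 1.64 in the second row.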

How the data were processed

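Gastrocnemius RNA was measured on 3 arrays, 1 per group. The authors deposited one linear intensity for each probe set on each array; the summary method, background correction and scaling are not given in the sources used here. The deposited medians were 13.8 (tamoxifen 48 h), 13.2 (tamoxifen 24 h) and 15.2 (oil 24 h). After 64 control probe sets were set aside, probe sets with a mean percentile rank of at least 0.5 across arrays were kept. Arrays were scaled to a common median over kept probe sets, by factors of 1.05, 0.944 and 1.01 in the same order, then floored at 4.05, the 25th percentile, and taken to log2. The kept probe set of highest mean rank stands for its gene. Of the probe sets, 34945 had 1 gene, 932 several and 9160 were not listed; symbols were updated through the RefSeq table of GRCm38.p6. The members, lists and settings were chosen with earlier results of these data known. Named were members past 2-fold, the 12 of highest mean rank, the 2 farthest from oil in each substrate class and, from other lists, those past 2-fold or farthest from oil; promoters were shown for 6 carriers with a kept probe set past 2-fold, picked after their values were seen; other genes complete a group or stand beside a carrier of the same substrate and were picked after their values were seen. Python 3.11.15, pandas 2.3.3 and, for cyclic loess, limma 3.58.1 were used, and the steps were tested on simulated data. Alternatives varied the filter, scaling, floor and choice of probe set. The number of arrays limits the precision.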

Additional observations from a re-analysis of the deposited data

How the results depend on the processing

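Of 60 recomputed counts over 10 alternatives, 39 stayed within 1.5 times the main count and 21 did not, in the comparisons tamoxifen 48 h over oil, 24 h over oil and 48 h over 24 h. In that order of comparisons, carriers past 2-fold numbered 4, 3 and 2 of 42 with the filter at rank 0.25, and 1, 0 and 0 of 25 at rank 0.75. With no filter they numbered 4, 3 and 1 of 44. That 1 carrier was lower at 48 h than at 24 h, where the main run had 1 higher. Against oil, both the filter at rank 0.25 and no filter gave 1 carrier higher at each time. Beside it, 3 were lower at 48 h and 2 at 24 h. The 48 h over 24 h count was 0 unscaled, after quantile normalization and after cyclic loess, and the 24 h count was 2 with a gene taken as the median of its probe sets. All genes past 2-fold numbered 1902, 1746 and 1437 of 14975 at rank 0.25, and 299, 178 and 87 of 6760 at rank 0.75. Without a filter they numbered 2028, 2122 and 1693 of 18193. These totals differ because more or fewer dim genes were compared. In the main run, 2, 1 and 1 of 36 carriers were past 2-fold in the same order. Most values thus started under 2-fold, and staying there says little about direction. For some the direction changed. Against oil, Slc25a44 at 24 h ran from -0.80 to 0.28 and Slc25a32 at 48 h from -0.77 to 0.02. Slc25a33 and Slc25a39 kept theirs against oil under all 10 alternatives, though Slc25a33, with 1 probe set, could be moved by the scaling only. A carrier that a filter removed was not counted there. Of 1047 single-carrier values, 1041 kept their side of 2-fold and none was past 2-fold in the opposite direction. The exceptions were Slc25a23 over 24 h, which fell to between 0.79 and 0.92 under 5 alternatives, and Slc25a36 at 24 h, which reached 1.04. That value came from taking the median intensity of its kept probe sets on each array, which was the same probe set each time. The 24 h ratios of its 3 kept probe sets were 0.52, 0.60 and 1.04. The carrier median ran between 0.05 and 0.14, between 0.0042 and 0.30, and between -0.19 and 0.06, and its values of 0.30 and -0.19 came without a filter, where the median of all genes was 0.19 and -0.14. Without scaling the median of all genes was 0.13 at 24 h over oil and -0.18 at 48 h over 24 h. The share of higher calls over all genes, 57.8%, 48.7% and 56.0%, was 49.2%, 63.8% and 29.3% unscaled, and in the last 2 comparisons 60.0% and 43.0% after quantile normalization. Replicates could not be left out with 1 array per group. No paired analysis was possible because each group has a single array.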

Other observations

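The carriers that did not pass the filter were dim, and the floor was 4.05. Slc25a13, the aspartate-glutamate carrier of liver, read 14.7 at 48 h and 6.97 at 24 h, against 1.87 with oil, which is below the floor. Taken against the floor, the ratios were 3.64-fold at 48 h and 1.72-fold at 24 h. They rest on 1 dim probe set and depend on where the floor is set. Slc25a48 had probe sets that disagreed: one read 21.4 and 14.5, against 0.66 with oil, and another 7.98 and 6.15, against 15.3 with oil. Slc25a18, a glutamate carrier, read 1.70 and 5.92, against 11.2 with oil. Slc25a31, the ADP/ATP carrier of testis, and the shared probe set of Slc25a37 and Gm16867 were below the floor on each array. Ucp1, the uncoupling protein of brown fat and also outside the filter, read 17.9 and 18.4, against 3.27 with oil, which is below the floor, while of the brown fat markers that passed the filter Cidea read 23.8 and 19.98, against 7.7 with oil, and Dio2 read 11.7 and 14.0, against 18.4 with oil.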
